A study of Mus musculus with 4 samples.

Results

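The genes that write, copy, guard and erase DNA methylation were examined across mouse preimplantation development. The members were 10 listed symbols, all of them found among the 20171 genes of the deposited gene table: the methyltransferase genes Dnmt1, Dnmt3a, Dnmt3b and Dnmt3l, the dioxygenase genes Tet1, Tet2 and Tet3, and Uhrf1, Dppa3 and Zfp57, whose products direct or restrain those enzymes. In the isoform table, 106 of 68012 isoforms carried the symbol of a member. The measurements were unique molecular identifier (UMI) counts of full-length cDNA read with PacBio long reads from single cells, scaled by the study to copies per 100000 UMIs of a cell, so every level given here is relative to the other transcripts of the same cell, and a smaller share of a cell's RNA cannot be told apart from fewer molecules in it.

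In mammals the sperm and egg genomes lose most of their cytosine methylation between fertilization and the blastocyst, while imprinted regions keep theirs. UHRF1 recognizes hemimethylated CpG sites behind the replication fork and brings in DNMT1, which copies the mark to the new strand, whereas DNMT3A and DNMT3B, helped by the inactive family member DNMT3L, methylate unmarked sites. The TET enzymes oxidize 5-methylcytosine, DPPA3 (also called STELLA) shields the maternal genome and keeps UHRF1 from the chromatin of the oocyte, and ZFP57 binds the methylated allele of imprinted control regions together with TRIM28.

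The embryos came from superovulated C57BL/6J females of 6 to 8 weeks mated with DBA/2NCrl males, although the strain field of the labels reads DBA/2J x C57BL/6J. Unmated MII oocytes were taken 20 hours after hCG, zygotes at 22 to 24 hours, early 2-cell embryos (E2C) at 30 to 32 hours, late 2-cell embryos (L2C) at 46 to 48 hours, 4-cell embryos at 54 to 56 hours, 8-cell embryos at 68 to 70 hours, 16- and 32-cell embryos at 78 to 80 hours and early blastocysts at 88 to 90 hours; mouse embryonic stem cells (mESC) were of the male line E14 Tg2A. The gene table held 161 cells of 3 runs, each run being 1 pool of cells on 1 PacBio chip, and 121 of these cells named their embryo: 10 oocytes, 9 zygotes, 10 cells of 5 E2C, 11 cells of 6 L2C, 17 cells of 5 4-cell, 26 cells of 4 8-cell and 38 cells of 4 16-cell embryos. The other 40 (22 cells of the 32-cell stage, 13 blastocyst cells and 5 mESC) named no embryo, so they are given as values without a test.

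The 43 embryos were the replicates, each the mean of its cells, and whether they came from separate females was not stated, so p-values measure the spread between these embryos. Depth ran from 4985 to 389775 UMIs a cell, and 1 UMI was worth 0.511 copies in the median oocyte, 0.406 in the median zygote and between 1.09 and 4.40 in the median cell of the other stages, so values of 1 to 3 copies after the zygote rest on very few molecules. Several sets of cells stood apart. The 3 zygotes of run 3 held 2529 to 2971 copies of 7 summed oocyte marker genes, close to the oocytes' 1742 to 2958, against 641 to 1313 in the other 6 zygotes. The isoform of Dppa3 with the last 3′ end took 32.1% to 37.9% of Dppa3 isoform UMIs in 14 embryos, among them all the run 1 oocytes and zygotes, and 1.80% to 12.3% in the other 29. Oocyte markers also summed to a median of 160 copies in blastocyst cells and 91.1 in mESC, against 6.33 in 32-cell-stage cells, although Zp1 and Zp2 were at 0 in both; the part of such RNA in the levels of these cells was not tested. Markers of cumulus and granulosa cells (6 of 9 in the table) summed to a median of at most 8.56 copies at any stage.

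Neighbouring stages were compared to ask when each gene changed. A gene was called where its log2 fold change on the log2(copies + 1) scale passed 1 in size and its unadjusted p was under 0.01, the limits the study set, with limma fitted to 11682 genes of all 43 embryos; adjusted p-values were corrected by Benjamini and Hochberg's method across these genes. All 10 members entered the fit. From oocyte to zygote 2 members were called, both higher, where 3.24% of all genes were called, and the members' median log2 change was 0.06 beside 0.07 over all genes. From zygote to E2C 2 members were called, 1 higher and 1 lower, where 7.27% of all genes were called (medians 0.03 and 0.11). Between E2C and L2C, the time of the major activation of the embryonic genome, 4 members were called, 1 higher and 3 lower, a share close to the 48.4% of all genes called there, and the medians were -0.40 for the members and 0.03 for all genes. From L2C to the 4-cell stage limma called 0 members, as did edgeR and DESeq2, where 6.69% of all genes were called (medians -0.03 and -0.06); 1 member, Uhrf1, had an unadjusted p under 0.05. The next step, from 4-cell to 8-cell, called 1 member, lower, where 15% of all genes were called (medians -0.40 and -0.16), and the step from 8-cell to 16-cell called 1, higher, where 3.36% were called (medians 0.54 and 0.03).

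Scaling by TMM factors moved the median of all genes by -0.11 from zygote to E2C, by -0.14 from E2C to L2C and by 0.16 from 4-cell to 8-cell. With it, 35.4% rather than 62.2% of the genes called between zygote and E2C were higher, 45.3% rather than 52.9% between E2C and L2C, and 52.5% rather than 29.8% between the 4- and 8-cell stages. TMM values are therefore given beside the members' called changes at these 3 steps, and for the other pathway genes where TMM ended a call.

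**Figure D1:**
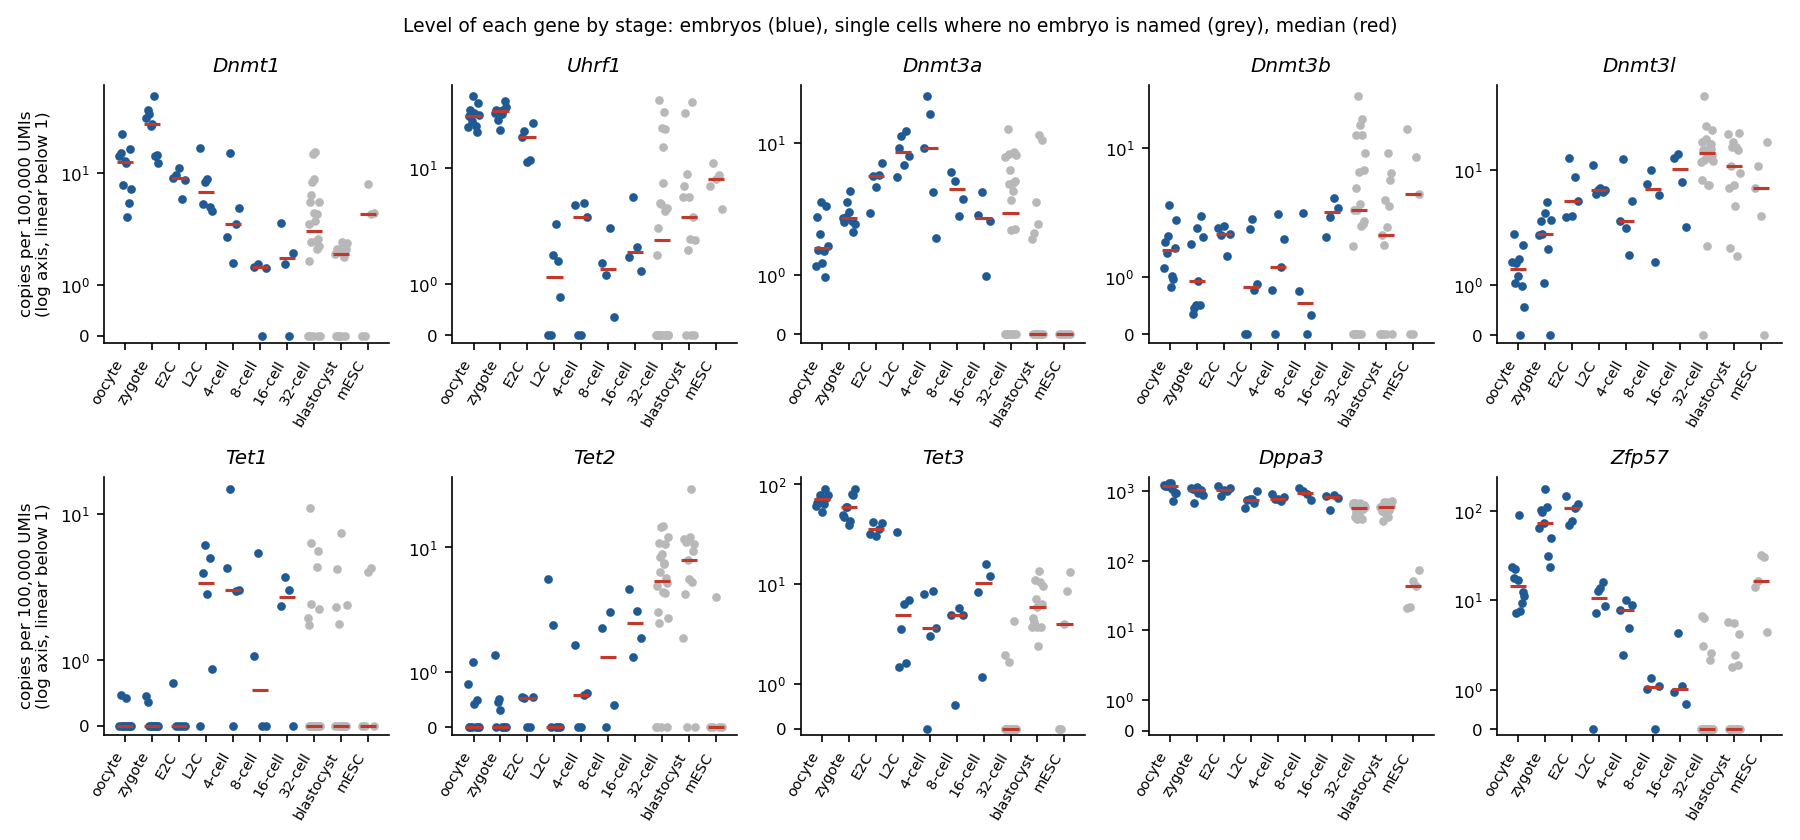
Copies per 100000 UMIs of each of the 10 genes by stage, on an axis that is linear below 1 and logarithmic above. Blue points are embryos, grey points are cells that named no embryo, and red bars are medians; the medians of Tet3 and Uhrf1 are higher up to E2C than at any stage from L2C on, Zfp57 is highest in zygotes and E2C, and Tet1 stays near 0 up to E2C.

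Dnmt1, the maintenance methyltransferase gene, was highest in zygotes. It measured 4.06, 12.3 and 22.1 copies in the lowest, median and highest oocyte and 12.2, 26.9 and 47.4 in the zygotes, so the ranges overlapped and the median zygote lay above every oocyte. Its mean rose from 11.6 ± 5.58 (SD, n = 10) to 26.7 ± 11.7 copies (n = 9), a log2 change of 1.19 with a standard error of 0.23 (limma, adjusted p = 1.59e-04). In run 1 the 5 oocytes averaged 14.3 and the 4 zygotes 31.3 copies without overlap, and in run 2 the single oocyte held 12.1 and the zygotes averaged 37.2. In run 3, whose zygotes held oocyte-like marker levels, the means were 8.21 and 13.6 and the groups overlapped.

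By E2C the Dnmt1 level had fallen to 8.94, 9.54, 10.99, 5.86 and 8.69 copies in the 5 embryos, every one below every zygote. The log2 change from the zygote was -1.50 with a standard error of 0.32 (limma, adjusted p = 4.64e-04), and -1.78 with TMM factors. Without the embryos of high late-end Dppa3 share the change was -0.95 and no longer passed the fold limit.

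Later values of Dnmt1 rested on few UMIs, 39 in all L2C cells. The L2C embryos ranged from 4.55 to 16.7 copies with a median of 6.76, the 4-cell embryos held 2.70, 14.9, 1.58, 3.53 and 4.87, and the 8-cell embryos held 1.45, 1.54, 0 and 1.43. The step to the 8-cell stage, -1.07 with an unadjusted p of 0.0258 and an adjusted p of 0.118 in limma, was not called. Means were 1.77 at the 16-cell stage, 4.25 in 32-cell-stage cells, 1.31 in blastocyst cells and 3.34 in mESC.

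The isoform table set the upstream start of Dnmt1 apart from 5′ ends inside the gene. It held 582 isoform UMIs of Dnmt1, beside 1106 gene UMIs. The mouse gene is known to use an oocyte start upstream of its somatic start, and transcripts from it lack the somatic start codon and code for a shorter protein. In the GENCODE annotation of mm10 the transcript from the upstream start (position 20959888 on the minus strand of chromosome 9) has its start codon in exon 4 at 20941452 and codes for 1501 amino acids, while the one that starts at 20952979 has its start codon in exon 1 and codes for 1620. The RefSeq windows (GRCm38.p6, the assembly behind mm10) around the upstream start and a start at 20952623 are shown. The second is labelled somatic below as a name only. The transcript from 20952623 also has its start codon in exon 4 and codes for 1501 amino acids. Its window is therefore not that of the 1620 amino acid transcript. Every Dnmt1 isoform UMI at an annotated first exon came from the upstream start. Isoforms found in under 5 cells were dropped and later stages held few Dnmt1 UMIs, so other annotated first exons could have been missed. CpG sites, the letters that these genes' products act on, are in capitals.

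Dnmt1 upstream start, minus strand, chr9:20959839-20960138: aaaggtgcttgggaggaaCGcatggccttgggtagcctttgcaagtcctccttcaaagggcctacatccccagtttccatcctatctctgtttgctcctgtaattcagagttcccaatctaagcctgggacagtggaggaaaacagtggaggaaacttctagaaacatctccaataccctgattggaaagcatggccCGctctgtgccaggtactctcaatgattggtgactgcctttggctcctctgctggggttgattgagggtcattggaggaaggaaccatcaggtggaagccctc
Dnmt1 somatic start, minus strand, chr9:20952574-20952873: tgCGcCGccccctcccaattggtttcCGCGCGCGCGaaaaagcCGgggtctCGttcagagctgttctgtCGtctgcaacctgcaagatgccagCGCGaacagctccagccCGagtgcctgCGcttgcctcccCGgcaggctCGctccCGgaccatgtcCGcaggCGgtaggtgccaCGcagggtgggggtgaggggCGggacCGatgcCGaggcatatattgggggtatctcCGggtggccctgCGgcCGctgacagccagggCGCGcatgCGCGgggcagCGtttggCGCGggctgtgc

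The upstream window held 2 CpG sites and 51.3% G and C, and 14.1% of the 32817 windows of 300 bases in the RefSeq table held fewer CpG. The window labelled somatic, at position 20952623, held 33 CpG sites and 69.7% G and C, with fewer CpG in 91.4% of windows. The window at 20952979, the start of the 1620 amino acid transcript, held 12, with fewer CpG in 60.4% of windows. The contrast of 2 and 33 CpG sites is thus between starts of transcripts that both code for 1501 amino acids. On either strand, both printed windows held CCAAT, present in 37.4% of all windows. The window labelled somatic held the GC box GGGCGG (35.6%), and neither held TATAAA (13.6%).

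The molecules with the upstream first exon (5′ splice site at 20959733, ends between 20959792 and 20959930) were found up to E2C and at no later stage. They made up 63 of 137 Dnmt1 isoform UMIs in oocytes (46.0%, exact 95% interval 37.4% to 54.7%), 228 of 360 in zygotes (63.3%, 58.1% to 68.3%) and 12 of 29 in E2C (41.4%, 23.5% to 61.1%). From L2C on there was none among 21, 3, 6, 11, 7, 5 and 3 UMIs of the successive stages, and the count in L2C allows a share of up to 14.3% (3 UMIs of the total). Intervals cover counting error only.

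Among embryos with at least 5 Dnmt1 isoform UMIs the share was 0%, 47.4% and 70% in the lowest, median and highest of 9 oocytes and 25%, 65.2% and 87.5% in 9 zygotes. It was 62.5%, 0%, 50% and 40% in the E2C embryos. These ranges overlapped at both steps. The difference was 20.6 points between oocyte and zygote (two-sided exact permutation test, p = 0.0808, adjusted p = 0.283 over 7 first-exon comparisons) and -22.2 points between zygote and E2C (exact permutation p = 0.154, adjusted p = 0.35). In run 1 the shares were 45.5% to 70% in oocytes and 41.4% to 87.5% in zygotes, in run 2 they were 47.4% in the oocyte and 65.2% and 77.8% in the zygotes, and in run 3 they were 0%, 33.3% and 0% against 40%, 70% and 25%. With at least 10 UMIs an embryo the first difference was 9.03 points, and without the E2C embryo at 0% the second was -9.50 points. The level of Dnmt1 rose at a step where the share of upstream starts did not pass its test. In each later stage fewer than 3 embryos had 5 UMIs, so no later step was tested.

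Most of these molecules were short. A single isoform of 941 bases and 10 exons, starting at 20959930, held 247 of the 303 UMIs with the upstream exon (49 from oocytes, 196 from zygotes and 2 from E2C). Its 3′ end lay inside exon 10 of the annotated transcript, where 11 of the next 20 transcript bases are A; 1.34% of the 5228 windows of that transcript hold as many, and the median window holds 5. No isoform joined the upstream exon to the annotated 3′ end, and all isoforms without the upstream exon began inside the gene, at 20907965 to 20914071, with no annotated first exon. When only the ends within 100 bases of each other were pooled, which keeps this isoform alone, the share fell by 47.7 points from zygote to E2C (exact permutation p = 0.0028).

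**Figure D2:**
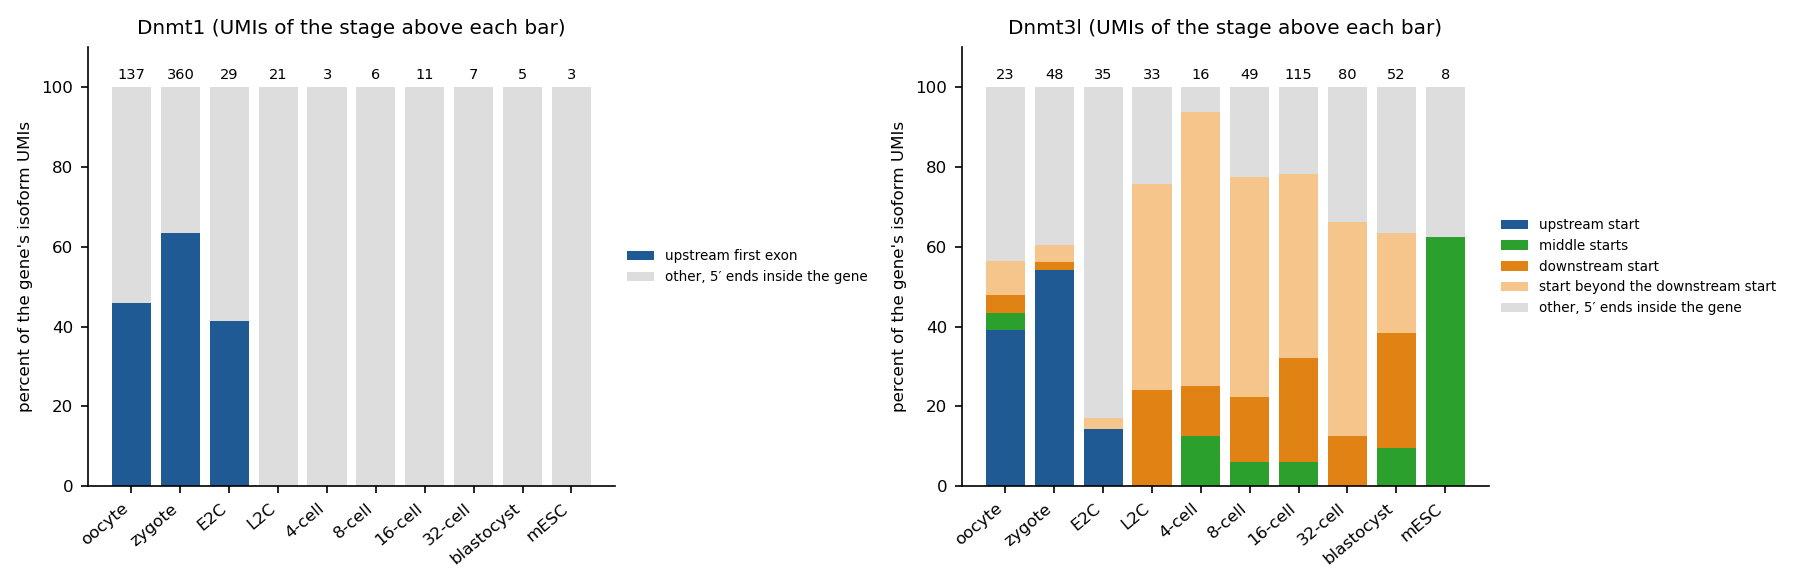
Share of isoform UMIs by start, in percent of the UMIs of the gene, for Dnmt1 and Dnmt3l at each stage, with the number of UMIs above each bar. The upstream starts of both genes are seen in oocytes, zygotes and E2C and in no UMI from L2C on.

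Uhrf1 was high in eggs and fell at the 2-cell stage. Oocytes held 20.5, 28.3 and 41.4 copies (lowest, median, highest) and zygotes 21.1, 30.9 and 37.7, and these ranges nearly coincided. E2C embryos held 18.4, 20.8, 11.3, 11.8 and 24.3, of which 4 lay below every zygote, with a log2 change of -0.86 (standard error 0.27, limma adjusted p = 0.0207) that did not reach the fold limit; with TMM factors it was -1.12 and did. In L2C embryos the lowest, median and highest were 0, 1.15 and 3.31, every one below every E2C embryo, and Uhrf1 fell by 3.08 on the log2 scale (standard error 0.37, limma adjusted p = 1.31e-10). The change was -3.22 with TMM factors and -2.98 without the embryos of high late-end share.

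After the fall Uhrf1 was low in the embryos and uneven among later cells. The 4-cell embryos held 4.77, 0, 0, 4.95 and 3.75 copies and the 16-cell embryos 1.71, 5.64, 2.08 and 1.30. Cells of the 32-cell stage ranged from 0 to 38.4 with a median of 2.40, and 12 of 22 held a UMI. Blastocyst cells ranged from 0 to 37.2 with a median of 3.77, and all 5 mESC held it, at 4.40 to 10.9. The 14 Uhrf1 isoforms, with 363 UMIs beside 1616 gene UMIs, mostly began inside the gene, and 15 and 6 UMIs came from the 2 annotated first exons. The most used class (5′ splice site at 56320542 on chromosome 17) took 27.6% in oocytes and 24.4% in zygotes (exact permutation p = 0.715). It then took 11.1% in E2C (exact permutation p = 0.2).

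Levels of the de novo methyltransferase gene Dnmt3a were higher on average at each stage up to L2C, but no single step passed the call. The mean was 1.99 ± 0.936 copies in oocytes and 2.90 ± 0.682 in zygotes. E2C embryos held 2.94, 5.63, 4.69, 5.72 and 7.03, and L2C embryos ranged from 5.56 to 12.4 with a median of 8.56. The log2 changes at these 3 steps were 0.43, 0.62 and 0.79 with adjusted p of 0.138, 0.113 and 0.0586 in limma. The 4-cell embryos spread from 1.90 to 22.5, with a mean of 10.9 ± 8.58 (n = 5). The fit, which weights embryos, gave a change of -0.71 from L2C (limma, adjusted p = 0.416) although the plain mean was higher. The mean was 4.43 at the 8-cell stage, 2.66 at the 16-cell stage, 3.60 in 32-cell-stage cells and 2.46 in blastocyst cells. In mESC it had 0 of 103590 UMIs, which allows up to 2.90 copies (3 UMIs of the total). Dnmt3a held 33 isoform UMIs beside 367 gene UMIs, so its isoforms cover a small part of its molecules. Of the 33, 20 began in an unannotated first exon with its 5′ splice site at 3904844 on chromosome 12, within the 3′ part of the gene. These were 12 of 16 in L2C, 6 of 7 in 4-cell and 2 of 2 in 8-cell embryos, and none at other stages. Those stages held few Dnmt3a isoform UMIs: 2 in oocytes, 2 in zygotes, 1 in E2C, 1 in 16-cell embryos and 2 in blastocyst cells. Cells of the 32-cell stage and mESC held 0. Such counts cannot show whether the exon is limited to the L2C to 8-cell stages.

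Dnmt3b, the other de novo enzyme, stayed between 1.06 and 3.14 copies on average in embryos. Its 16-cell embryos held 2.05, 2.91, 4.13 and 3.46 copies and its 8-cell embryos 0.764, 3.12, 0 and 0.345, which overlap. The change of 0.90 was not called (limma, adjusted p = 0.371). Cells of the 32-cell stage averaged 5.90 ± 6.76, blastocyst cells 2.69 and mESC 5.40, and no isoform of Dnmt3b was in the isoform table.

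Dnmt3l, the catalytically inactive partner of the de novo enzymes, was higher after the first cleavage than before. Oocytes held 0, 1.37 and 2.78 copies (lowest, median, highest) and zygotes 0, 2.75 and 5.27. The E2C embryos held 3.93, 12.7, 4.00, 8.75 and 5.40, overlapping the highest zygotes. The level rose by 1.03 on the log2 scale from zygote to E2C (standard error 0.32, limma adjusted p = 0.0223), a call that was lost with edgeR (0.93), with TMM factors (0.83), without the run 3 eggs (0.81) and without the second (0.84) or the fourth (0.91) E2C embryo. The preceding step, 0.67 with an adjusted p of 0.0478 in limma, did not reach the fold limit. No later step was called, with 7.36 ± 1.86 copies in L2C embryos, 5.30 in 4-cell, 6.35 in 8-cell and 9.46 in 16-cell embryos, and the highest mean was 14.7 ± 8.79 in 32-cell-stage cells, where 21 of 22 held a UMI.

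As with Dnmt1, the upstream start of Dnmt3l was seen up to E2C and in no isoform UMI from L2C on. Whether 5′ ends inside the gene are starts was not tested. The study proposes incomplete reverse transcription for some transcripts that lack the start codon. The gene lies on the plus strand of chromosome 10. A full-length isoform of 14 exons began at 78042239, near the annotated start at 78042287, and matches a transcript coding for 421 amino acids. Most later isoforms began beyond a downstream annotated start at 78055335, whose transcript has an open reading frame of 126 amino acids. The RefSeq windows at these starts, again with CpG in capitals, are shown for their contrast with the Dnmt1 pair.

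Dnmt3l upstream start, plus strand, chr10:78042037-78042336: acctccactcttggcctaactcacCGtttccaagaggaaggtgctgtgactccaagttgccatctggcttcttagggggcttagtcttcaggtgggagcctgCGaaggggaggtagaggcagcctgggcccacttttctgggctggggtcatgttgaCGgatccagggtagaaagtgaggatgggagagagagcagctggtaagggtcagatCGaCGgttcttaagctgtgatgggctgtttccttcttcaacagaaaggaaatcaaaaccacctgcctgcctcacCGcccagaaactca
Dnmt3l downstream start, plus strand, chr10:78055085-78055384: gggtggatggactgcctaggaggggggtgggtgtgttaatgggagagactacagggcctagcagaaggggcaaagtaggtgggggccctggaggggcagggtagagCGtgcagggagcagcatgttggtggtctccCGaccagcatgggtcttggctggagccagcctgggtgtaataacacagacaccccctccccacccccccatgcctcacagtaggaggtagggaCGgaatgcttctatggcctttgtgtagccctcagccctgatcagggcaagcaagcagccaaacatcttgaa

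The upstream window held 6 CpG sites and the downstream window 3, beside a median of 7 over all windows. Of the 3 motifs searched, the upstream window held GGGCGG and the downstream one none. A middle start at 78049842 had 4 CpG sites.

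The upstream isoform held 9 of 23 Dnmt3l isoform UMIs in oocytes (39.1%, exact 95% interval 19.7% to 61.5%), 26 of 48 in zygotes (54.2%, 39.2% to 68.6%) and 5 of 35 in E2C (14.3%, 4.81% to 30.3%). It held none of the 33 in L2C and none of 16, 49, 115, 80, 52 and 8 UMIs of the stages after it; at the 16-cell stage that count allows up to 2.61%. Among embryos with at least 5 UMIs the mean share was 56.2 ± 17.7% in 6 zygotes and 14.8 ± 25.7% in 3 E2C embryos (exact permutation p = 0.0476, adjusted p = 0.283 over 7 comparisons), so the decrease did not pass the correction. In E2C the UMIs came from a single embryo with 4 of 9 and another with 1 of 3, and the other 3 embryos had none of 5, 15 and 3.

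Sorting the remaining Dnmt3l isoforms into groups by start was done after the values had been seen, so these counts are a description. The 5′ end at 78056269, beyond the downstream start and at no annotated first exon, held 17 of 33 UMIs in L2C, 11 of 16 in 4-cell and 27 of 49 in 8-cell embryos. It held 53 of 115 in 16-cell, 43 of 80 in 32-cell-stage and 13 of 52 in blastocyst UMIs, after 2, 2 and 1 in the 3 earliest stages. The downstream start itself (5′ ends at 78055458 and 78055488) held 8, 2, 8, 30, 10 and 15 at the same later stages. The middle starts held 5 of 8 UMIs in mESC, and 2, 3, 7 and 5 UMIs at the 4-cell, 8-cell, 16-cell and blastocyst stages.

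Among the erasers, only Tet3 had UMIs in every oocyte and zygote. It held 3393 gene UMIs over all stages and no isoform UMIs. Oocytes held 53.3, 70.9 and 90.6 copies (lowest, median, highest) and zygotes 39.3, 59.2 and 90.1, with wide overlap and a change of -0.31 (limma, adjusted p = 0.407). Run 3 differed from the other runs here: its oocytes averaged 76.6 and its zygotes 82.9 with overlap, while in run 1 the means were 69.4 and 53.8 and in run 2 the values were 53.3 and 41.3, without overlap. The run 3 zygotes are those with oocyte-like marker sums, and the part of that difference in the comparison was not tested.

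Tet3 then fell at genome activation. E2C embryos held 32.0, 42.0, 30.3, 35.5 and 41.0 copies, a change of -0.65 from the zygote that was not called (limma, adjusted p = 0.135). L2C embryos held 1.48, 4.94 and 33.4 (lowest, median, highest), and 5 of the 6 lay below every E2C embryo. The fall was 2.95 on the log2 scale (standard error 0.41, limma adjusted p = 8.85e-09), with -3.22 under TMM factors. The exception, at 33.4 copies, was an embryo represented by 1 cell, which limma gave the lowest weight of all, 0.158.

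At the 4-, 8- and 16-cell stages the embryo of lowest oocyte marker sum also had the lowest Tet3. The other 8- and 16-cell embryos did not follow the order of their marker sums. At the 8-cell stage 3 embryos held 4.95, 5.84 and 4.92 copies of Tet3, with marker sums of 135, 66.7 and 92.2. The remaining embryo held 0.5255 copies, at the lowest marker sum, 16.4. At the 16-cell stage the embryo with 1.19 copies had a marker sum of 6.89, while the others held 8.45, 16.0 and 12.02, with marker sums of 221, 184 and 146.7. The 4-cell embryo without Tet3 had a marker sum of 29.9, against 128 to 196 in the others. Cells of the 32-cell stage averaged 0.358 copies with a UMI in 3 of 22 cells, at a marker median of 6.33, whereas all 13 blastocyst cells held Tet3, at a mean of 6.68 ± 3.495 copies and a marker median of 160. At the oocytes' ratio of Tet3 to these markers, the blastocyst marker level corresponds to 4.86 copies of Tet3. The mESC level corresponds to 2.47 beside 5.16 measured, and the 16-cell level to 4.06 beside 9.43 measured. The blastocyst value rests mainly on H1foo and Gdf9, at 139 and 23.8 copies. Bmp15 was at 0.325 copies in those cells, against 44.2 in oocytes, so the ratio depends on the markers chosen. The part of oocyte RNA in the late Tet3 values was not tested. The step from 8- to 16-cell embryos, 0.95, was not called (limma, adjusted p = 0.33).

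**Figure D3:**
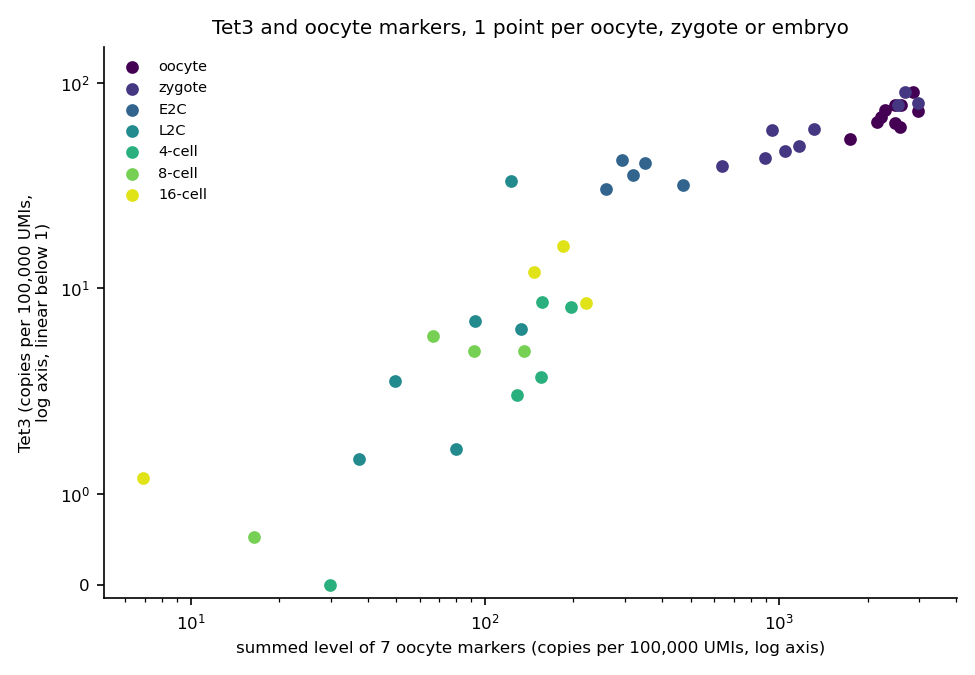
Tet3 against the sum of 7 oocyte markers in 43 embryos, both in copies per 100000 UMIs and coloured by stage. The L2C to 16-cell embryos lie below the oocytes and zygotes on both axes, and the 8- and 16-cell embryos of lowest marker sum have the lowest Tet3.

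Tet1 was the only member called higher at genome activation. Up to E2C it had 2 UMIs in all oocytes, 2 in all zygotes and 1 in all E2C cells, with means of 0.088, 0.091 and 0.130 copies. L2C embryos held 0, 3.40 and 6.12 (lowest, median, highest), and 5 of the 6 were above every E2C embryo. The rise was 1.87 on the log2 scale (standard error 0.40, limma adjusted p = 6.72e-05), and 1.64 with TMM factors. The 4-cell embryos held 4.29, 14.9, 0, 2.97 and 3.03 copies, and the means of later stages were between 1.40 and 2.28. No Tet1 isoform was in the isoform table.

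Tet2 was highest in the cells of the latest stages. It was at 0.289, 0.293 and 0.323 copies on average in oocytes, zygotes and E2C, and 4 of the 6 L2C embryos had none. The 8-cell embryos held 2.25, 0, 3.03 and 0.395 copies and the 16-cell embryos 4.61, 1.32, 3.07 and 1.86, with overlap. The change of 1.13 (standard error 0.38) met the call limits with an unadjusted p of 0.00476, its adjusted p was 0.156 in limma, and 11 of 17 alternatives lost the call. The highest levels were 6.10 ± 4.56 copies in 32-cell-stage cells, 18 of 22 with a UMI, and 8.42 ± 7.70 in blastocyst cells, 11 of 13 with a UMI. In mESC 1 of 5 cells held a UMI.

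**Figure D4:**
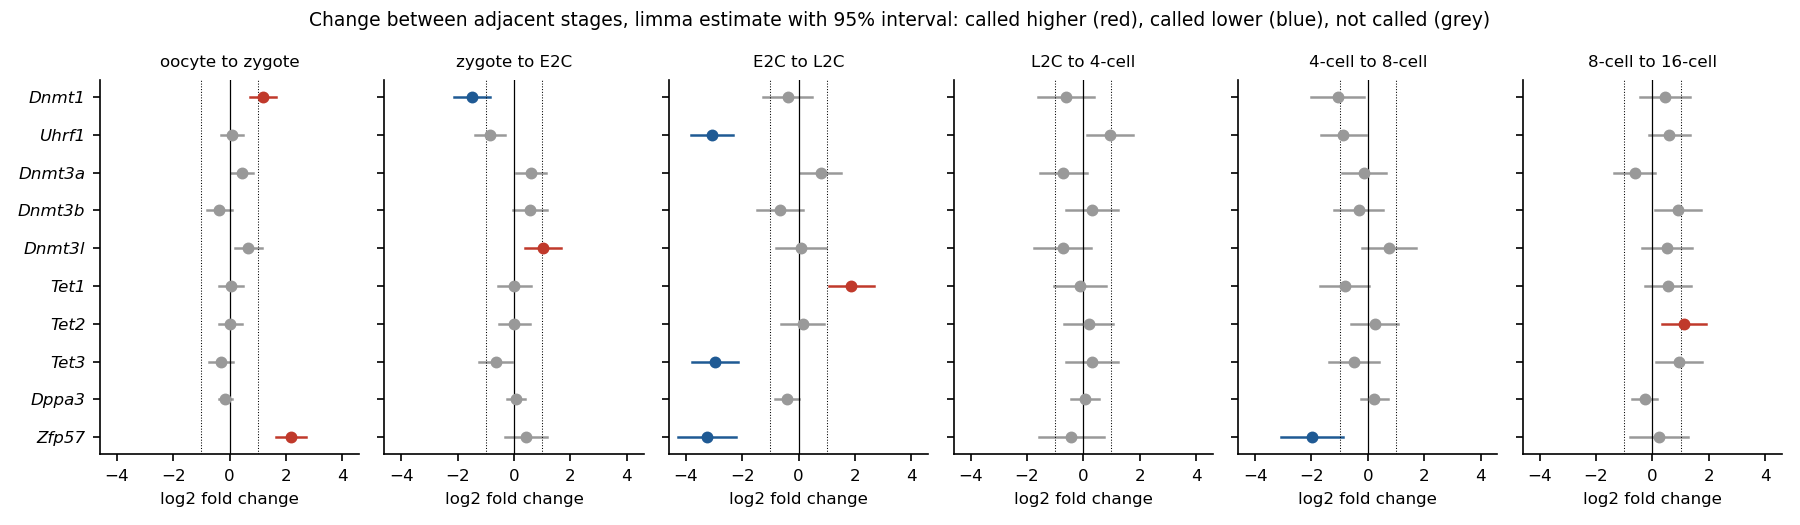
Log2 change between neighbouring stages for each member on the log2(copies + 1) scale, with 95% intervals from limma. Red points are called higher, blue points called lower and grey points not called; the calls lie at the steps from oocyte to E2C, at E2C to L2C and singly for Zfp57 (4-cell to 8-cell) and Tet2 (8-cell to 16-cell).

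Dppa3, the maternal factor that protects methylation in the egg, was by far the most counted member. Oocytes held 719, 1201 and 1322 copies (lowest, median, highest), zygotes 682, 1032 and 1174, and the 5 E2C embryos 872 to 1186. L2C embryos averaged 760 ± 139, 4-cell embryos 813 ± 66.0, 8-cell embryos 948 ± 158 and 16-cell embryos 779 ± 159, and ranges of neighbouring stages overlapped throughout. No step was called; the largest was -0.41 from E2C to L2C (limma, adjusted p = 0.1005), or -0.78 with TMM factors. Cells of the 32-cell stage averaged 567 ± 94.6, blastocyst cells 578 ± 102.1 and mESC 42.5 ± 22.5, all 5 mESC below every cell of the 32-cell stage and the blastocyst. At the oocytes' ratio to the oocyte markers, the mESC marker level corresponds to 39.0 copies of Dppa3. That level rests mainly on H1foo and Gdf9, at 51.1 and 29.8 copies, with Bmp15 at 0. RefSeq windows were found for 9 members (18 windows), and Dppa3 was unmatched.

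The start of Dppa3 hardly varied, but its 3′ end did. Isoforms with the 5′ splice site at 122626610 on chromosome 6 held 97.8% of its 93034 isoform UMIs. Its gene UMIs were fewer, 89364, although rare isoforms were dropped. The shares below are of isoform UMIs and not of the gene-level count. An isoform ended early, at 122630175, ahead of the annotated end at 122630272, and another ended late, at 122630377. The last 30 bases before the early and the annotated end are shown with a polyadenylation hexamer, AATAAA, in capitals where present; 35.5% of 58793 annotated coding transcripts hold AATAAA in their last 30 bases and 9.74% hold ATTAAA.

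Dppa3 early end, plus strand, chr6:122630146-122630175: cgatccagatttatgtgaagtttagaagcc
Dppa3 annotated end, plus strand, chr6:122630243-122630272: cagaaatttgtAATAAAagcatttttgtta

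The early end held neither hexamer, and 4 of the next 20 bases are A. Its share of the Dppa3 UMIs averaged 0.149% in oocytes (32 of 24722 UMIs), 0.261% in zygotes (60 of 24717) and 0.931% in E2C (84 of 8911). It was 7.64% in L2C (353 of 4604) and 7.39% in 4-cell embryos (307 of 4369). The L2C embryos, at 5.39% to 10.8%, all lay above the E2C embryos, at 0.548% to 1.28%, and above every oocyte and zygote, of which the highest was 0.787%. The mean was then 4.39% at the 8-cell and 3.65% at the 16-cell stage, 4.78% in 32-cell-stage cells and 3.41% in blastocyst cells. This end was picked after the values had been seen, and no test is given. The gene level did not pass the call at the step where the share of the early end moved.

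The late end differed between sets of cells and, within the set of low share, also between stages. In that set it was 1.80% to 3.56% in E2C and 8.53% to 10.8% in L2C embryos, without overlap. Later embryos of the set held 8.40% to 12.3% (4-cell), 8.79% to 9.04% (8-cell) and 6.62% to 8.78% (16-cell). In run 1 it held 34.4% to 36.4% of Dppa3 UMIs in oocytes and 32.1% to 34.3% in zygotes, and in runs 2 and 3 it held 2.00% to 3.13% in both. The run of the later embryos is not known from their names, but 1 embryo of each later stage held 33.6% to 37.9%, and blastocyst cells held 27.2% to 37.6%. The early end in the embryos of high late-end share was 0.995% in E2C, 7.20% in L2C and 3.03% in 16-cell embryos, within the range of the others. At the 4-cell stage it was 3.76% against 5.52% to 12.2% in the others, and at the 8-cell stage 3.84% against 4.49% to 4.65%. The run 1 oocytes held 0.037% to 0.162%, below the other oocytes except 1 that had none.

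**Figure D5:**
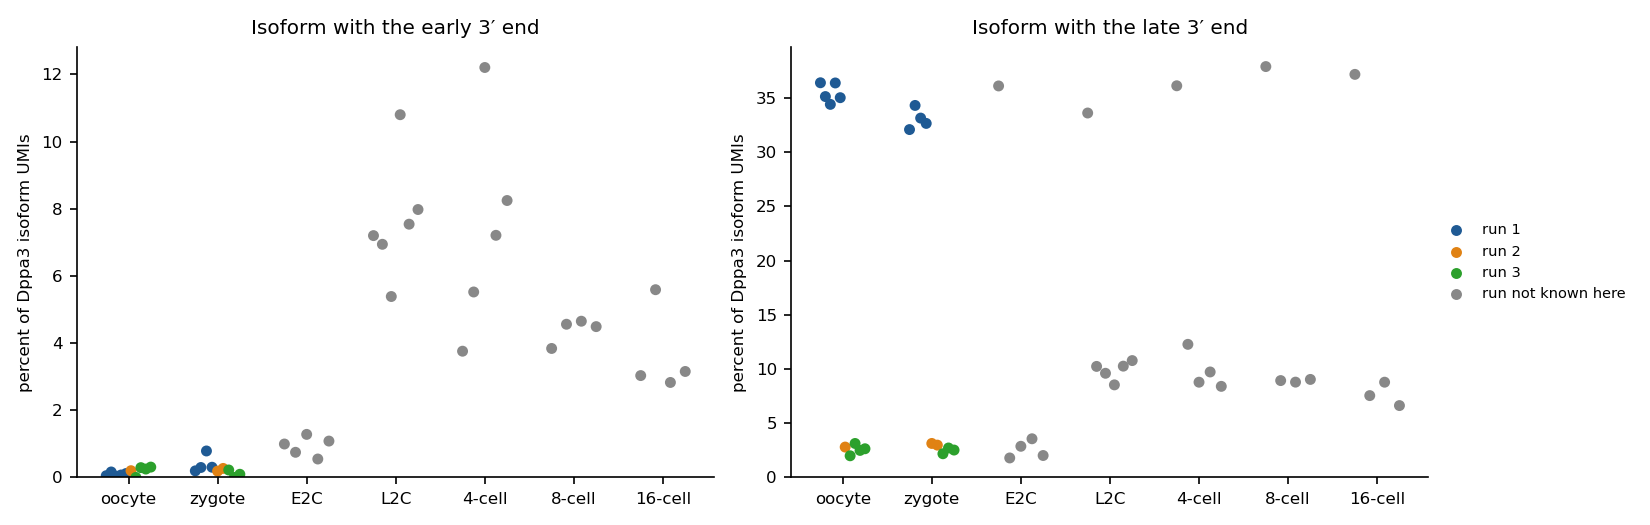
Share of Dppa3 isoform UMIs with the early 3′ end and with the late 3′ end, in percent, by stage from oocyte to 16-cell. Each point is an oocyte, zygote or embryo coloured by run, or grey where its run is not known. The early end is at most 1.28% up to E2C and at least 2.83% in every embryo from L2C to the 16-cell stage, while the late end splits each stage into embryos of 32.1% or more and of 12.3% or less.

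Zfp57, the imprint guardian, was called at 3 of the 6 steps. Oocytes held 7.23, 14.6 and 89.1 copies (lowest, median, highest), the highest being the only oocyte of run 2, and zygotes held 23.3, 73.2 and 176.7. The level rose by 2.18 on the log2 scale (standard error 0.27, limma adjusted p = 3.75e-08), from a mean of 21.7 to 81.0 copies. Zygotes were higher than oocytes in each run: 84.6 against 17.4 in run 1, 143 against 89.1 in run 2 and 34.7 against 10.1 in run 3, with no overlap within any run. With run as a block the change was 1.81.

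E2C embryos held 145, 70.2, 76.9, 108 and 120 copies of Zfp57, within the zygotes' range and a change of 0.43 that was not called (limma, adjusted p = 0.525). L2C embryos held 0, 10.6 and 16.1 (lowest, median, highest), every one below every E2C embryo. The level fell by 3.25 (standard error 0.51, limma adjusted p = 1.91e-07), with -3.55 under TMM factors. It fell again, by 1.98 (standard error 0.55, limma adjusted p = 0.00778; -1.64 under TMM factors), from 7.72, 2.45, 10.1, 4.85 and 8.87 copies in the 4-cell embryos to 1.02, 1.36, 0 and 1.10 in the 8-cell embryos, without overlap. Means of the later embryonic cells stayed between 0.939 and 1.73, and all 5 mESC held it, at 4.40 to 31.9 copies. Of 2179 Zfp57 isoform UMIs, 88.8% shared the 5′ splice site at 37002777 on chromosome 17.

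The pattern of each gene over the 43 embryos was set beside that of 3877 other genes, by Pearson's r of log2(copies + 1), as a description; the points share stage and depth. Tet3 was most like C87499 (r = 0.98) and Btg4 (0.96), an adaptor of maternal mRNA decay, and Uhrf1 most like Daw1 and Ccdc34 (both 0.95). Zfp57 was nearest to Fbxw15 (0.92) and Dnmt1 to Ktn1 (0.90). Likeness was lower for the other members, at 0.79 for Dnmt3a with Dnajc21, 0.79 for Dnmt3l with Cnot1, 0.82 for Tet1 with Clp1, 0.75 for Dppa3 with Snrpb2, 0.71 for Tet2 with Xist and 0.48 for Dnmt3b with Zfp207. Between members, r was 0.86 for Uhrf1 and Tet3 and 0.71 for Zfp57 and Dnmt1.

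A list of 50 other genes of the pathway (partners of maintenance, guides of de novo methylation, imprint guardians, TET cofactors, base excision repair and methyl donors) had 48 in the table, of which 41 were tested. Between oocyte and zygote limma called 0 of them, with 6 at an unadjusted p under 0.05, edgeR called 1 and DESeq2 called 0. From zygote to E2C 5 were called (12.2%): the H3K36 methyltransferase gene Nsd1 (1.37, limma adjusted p = 6.51e-04) and Dcaf1 (1.06, adjusted p = 0.0093) rose, while the glycosylase gene Neil3 (-1.22, adjusted p = 2.93e-04), Xrcc1 and Trim28 fell. With TMM factors the call of Dcaf1 was lost (0.83), and 1 gene of the list was called higher and 4 lower. Trim28, the partner of ZFP57, went from 16.8 to 6.19 copies at that step (-1.18, adjusted p = 3.62e-04) and rose to 13.7 in L2C (1.06, adjusted p = 0.0056), where Zfp57 itself fell; the rise was not called with TMM factors (0.73).

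Between E2C and L2C 12 of these genes rose and 11 fell (56.1%, beside 48.4% of all genes), with a median change of -0.01; with TMM factors 8 were called higher and 13 lower. Ehmt2, an H3K9 methyltransferase gene, rose from 0.215 to 5.75 copies (2.53, limma adjusted p = 1.11e-07), and the repair endonuclease gene Apex1 from 2.10 to 16.6 (2.48, adjusted p = 4.61e-06). Neil3 fell from 27.6 to 0.713 copies (-4.11, adjusted p = 1.32e-15) and Mat2b, a subunit of the S-adenosylmethionine synthase, from 224 to 42.8 (-2.54, adjusted p = 5.85e-12). Among the 9 maintenance partners, Ehmt1, Ehmt2, Cdca7 and Uhrf2 rose and Hells and Pcna fell at this step, of which the call of Cdca7 was lost with TMM factors (0.86).

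Of these genes, 3 were called from L2C to the 4-cell stage (7.32%), with Idh2, a source of the TET cofactor 2-oxoglutarate, higher (2.08, limma adjusted p = 0.00602). From 4-cell to 8-cell 4 rose and 5 fell (22.0%): Idh1 (2.37, adjusted p = 6.22e-05) and the repair polymerase gene Polb (1.44, adjusted p = 0.0061) were higher, and Usp7, which stabilizes DNMT1 and UHRF1 (-1.54, adjusted p = 2.38e-04), and Mat2b (-1.20, adjusted p = 0.00233) were lower. With TMM factors 5 were called higher and 3 lower, and the call of Mat2b was lost (-0.92). From 8-cell to 16-cell 3 met the call limits, all higher (7.32%), among them Gadd45b (1.496) and Ogt (1.35), with adjusted p of 0.0997 and 0.0654.

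Run 4 held 16 columns, of which 4 were named for oocytes and taken as intact, 6 for 1/2 and 6 for 1/4 of an oocyte, with 129744 to 289774 isoform UMIs each. Its levels, summed over isoforms, are set beside the isoform sums of the 10 oocytes of runs 1 to 3, in copies per 100000 isoform UMIs. The tables were made separately, so no test is given. Whether run 4 counted a molecule under several isoforms was not tested, so the sums may not share a scale with the earlier runs. Dnmt1 averaged 15.5, 17.3 and 16.4 copies in the 3 kinds in that order, beside 10.0 in the earlier runs. Zfp57 averaged 11.2, 12.5 and 10.6 beside 19.8, and Dnmt3l 0.707, 1.38 and 1.46 beside 1.68. The values of intact and divided oocytes lay within their spread for these 3 genes. Uhrf1, at 66.4 to 77.2 copies beside 11.3, and Dppa3, at 724 to 797 beside 1832, differed between the tables more than between the kinds of oocyte. The 3 most counted Dppa3 isoforms of that run had 7147, 7266 and 7208 UMIs, where runs 1 to 3 gave the same isoforms 71531, 17149 and 6. Its split by isoform is therefore not given. First exons differed too. The upstream class of Dnmt1 held 34 UMIs in run 4, and the classes with 5′ splice sites at 20912180 and 20913897 held 101 and 103. Oocytes of runs 1 to 3 gave these classes 63, 9 and 1. For Dnmt3l the upstream class held 5 and the class at 78052883 held 8, after 9 and 1. The reason was not tested.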

How the data were processed

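The authors amplified each cell by a SCAN-seq type protocol with a 10x gel bead in every reaction and sequenced HIT-scISOseq libraries. Consensus reads came from SMRT-Link, cell barcodes and UMIs from scISA-Tools, alignments to mm10 from minimap2, gene names from gffcompare, and isoforms from cDNA_Cupcake and SQANTI3, and the authors dropped isoforms found in under 5 cells. Every column of the deposited tables of runs 1 to 3 holds CPM-type values scaled to 100000 UMIs of the cell; the deposited columns outside the 8-, 16- and 32-cell stages were catalogued as a score, on that same scale. The deposited table of run 4 holds whole UMI counts. Whole UMIs were recovered for 100% of gene and isoform values (tolerance 0.1 UMI) and used for counts, edgeR and DESeq2. Stage and embryo were read from column names, which carry no barcodes, and the run of the 19 oocytes and zygotes from the authors' cell lists; no doublet caller was run, and 0 columns of other samples were left out.

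The value of an embryo was the mean of its cells. Genes with at least 1 copy in at least 4 embryos were kept, log2(value + 1) was fitted with limma (trend and array weights, all 7 stages in 1 fit), and first-exon shares were compared by exact permutation tests over embryos with at least 5 UMIs, a first-exon class being the isoforms with the same first 5′ splice site. The genes named beside the members were the 2 most changed in each direction among called genes of the pathway list, and the 2 of highest r for each member; Xrcc1, the maintenance partners and Trim28 in L2C were added after their values were seen. The members and lists were chosen with earlier results of these data known. Alternatives were a pseudocount of 0.5, no filter, no array weights, TMM factors, edgeR, DESeq2, adjusted p under 0.05, leaving out embryos, and, added after seeing the data, leaving out run 3 or the embryos of high late-end share and taking run as a block. The limma, edgeR and DESeq2 fits were tested on simulated UMIs, and the permutation test on a constructed case of known shares. Software was R 4.3.3, limma 3.58.1, edgeR 4.0.16, DESeq2 1.42.0, python 3.11.15, numpy 2.4.6, pandas 2.3.3 and scipy 1.17.1. Annotation was GENCODE vM21 and RefSeq.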

Additional observations from a re-analysis of the deposited data

Results flagged for a closer look

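In groups of 4 to 10 embryos the highest or lowest value was compared with the spread of the others by Dixon's ratio. It stood apart in 19 of 83 groups of embryos. The rate of about 1 in 20 that chance gives holds for independent groups, and these were not. The Dppa3 end shares of an embryo depend on each other and were picked after the isoforms had been seen, and some embryos recur across genes. The count is therefore not weighed against chance.

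For gene levels, the L2C embryo represented by 1 cell had 16.7 copies of Dnmt1 (4.55 to 8.82 in the others), 11.1 of Dnmt3l (6.24 to 6.96) and 33.4 of Tet3 (1.48 to 6.90). The second 4-cell embryo had 14.9 copies of Dnmt1 (1.58 to 4.87 in the others) and 14.9 of Tet1 (0 to 4.29). The third 8-cell embryo had 0 copies of Dnmt1 against 1.43 to 1.54. Zfp57 was at 89.1 copies in the oocyte of run 2 against 7.23 to 23.5 in the others, and at 4.29 in the second 16-cell embryo against 0.628 to 1.10.

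For Dppa3 the early 3′ end held 0.787% in the third zygote (0 to 0.303% in the others) and 5.59% in the second 16-cell embryo (2.83% to 3.15%). The late end held 36.1% in the first E2C embryo (1.80% to 3.56% in the others), 33.6% in the first L2C embryo (8.53% to 10.8%), 36.1% in the first 4-cell embryo (8.40% to 12.3%), 37.9% in the first 8-cell embryo (8.79% to 9.04%) and 37.2% in the first 16-cell embryo (6.62% to 8.78%). The end between these was low in the same embryos and stood apart by Dixon's ratio in 4 of them, at 60.8% in E2C, 53.6% in L2C, 56.7% in 4-cell and 56.1% in 8-cell embryos; in the first 16-cell embryo it was 58.2% against 81.8% to 87.7%.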

How the results depend on the processing

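The number of members called from oocyte to zygote (2) and from E2C to L2C (4) stayed within 1.5 times under every alternative run, and no change reversed. From zygote to E2C the 2 calls (Dnmt1 and Dnmt3l) were 3 with edgeR (Dnmt1, Tet3 and Uhrf1) and 2 with TMM factors (Dnmt1 and Uhrf1), and became 1 without run 3 (Dnmt1) and 1 without the embryos of high late-end share (Dnmt3l), and were 1 to 2 when 1 embryo was left out, with 1 (Dnmt1) without E2C embryo 2 or 4. From L2C to 4-cell they were 0 to 1 when 1 embryo was left out, with 1 (Uhrf1) without L2C embryo 4 or 4-cell embryo 3. From 4-cell to 8-cell they were 2 without array weights (Dnmt1 and Zfp57) and 1 to 2 when 1 embryo was left out (Uhrf1 added without 4-cell embryo 3, Tet1 without 8-cell embryo 2). From 8-cell to 16-cell the 1 call became 0 with a pseudocount of 0.5, no filter, TMM factors, adjusted p under 0.05 or without the embryos of high late-end share, and 0 to 2 when 1 embryo was left out (0 without 8-cell embryo 4 or 16-cell embryo 1, 2 without 8-cell embryo 2 or 16-cell embryo 2). The Dnmt1 first-exon share differed by 20.9 points between oocyte and zygote (exact permutation p = 0.0394) and by -47.7 points between zygote and E2C (p = 0.0028) with ends within 100 bases, and the first difference was 15.6 to 25.0 points when 1 embryo was left out, with 24.4 (exact permutation p = 0.0446) without oocyte 5 and 25.0 (p = 0.0311) without zygote 9; the second difference was -30.3 to -9.50 points when 1 embryo was left out. The pooling of ends within 100 bases keeps a single isoform; for the other changes the cause was not tested. Of the 169 alternatives of single members' changes, 152 kept the call and 17 lost it: 11 for Tet2, 5 for Dnmt3l and 1 for Dnmt1.

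Over all genes, calls between oocyte and zygote were 379 in the reported fit, 758 with a pseudocount of 0.5, 794 with edgeR, 623 without run 3, 213 without the embryos of high late-end share and 187 with run as a block. Between zygote and E2C 849 became 1359 with a pseudocount of 0.5 and 1432 without the embryos of high late-end share. Between L2C and 4-cell 782 became 1183 without array weights, 487 with DESeq2, 359 at adjusted p under 0.05, and 423 and 464 without 4-cell embryos 4 and 5. Between 8-cell and 16-cell 393 became 220 with DESeq2 and 157 at adjusted p under 0.05. Depth limits the members of few UMIs (Tet1, Tet2, Dnmt3b) and isoform shares after E2C. No paired analysis was possible because the embryos of different stages carry no shared numbers that tie them to a female or a litter.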
